A study of Mus musculus with 3 samples.

Results

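TRα1 binding was examined at 10 genes of the circadian clock: Nr1d1, Nr1d2, Per1, Per2, Per3, Cry1, Cry2, Clock, Dbp and Rora. Chromatin had been prepared from the striatum of euthyroid, untreated male C57BL/6J mice aged 8 weeks that carried a GS-tagged TRα1, restricted to GABAergic neurons. The GS tag is a tandem affinity tag fused to the receptor. The series held 2 ChIP libraries and 1 input library, and all came from tagged animals. Its processed data were 1 list of 23988 TR binding sites (TRBS) on GRCm38. A TRBS was attributed to a gene if its summit, the position of highest coverage, lay inside the gene or within 30 kb of its 5′ end. By this rule 53 TRBS belonged to the clock genes, and 8 of them were also attributed to Thra, the gene of TRα1 itself, which neighbours Nr1d1. These 8 are given separately, which leaves 45 TRBS of the clock genes alone. The list gave no value for a single library, so no comparison of replicates was possible, and variation among animals is in none of the intervals. The hour at which tissue was taken is not given in the sources used here.

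The circadian clock is a transcriptional feedback loop that runs in nearly every cell. CLOCK and its partner BMAL1 bind E-boxes and drive the Per and Cry genes, whose proteins return to the nucleus and inhibit them. The same E-boxes drive Nr1d1 and Nr1d2, which encode the repressors REV-ERBα and REV-ERBβ, and Dbp, which encodes an activator that binds D-boxes. REV-ERBs compete with RORα, the product of Rora, for the ROR response element (RORE). TRα1 is a nuclear receptor for the thyroid hormone T3. It binds AGGTCA half-sites, best known as the DR4, a direct repeat of that half-site spaced by 4 bases. Nr1d1 and Thra are transcribed towards each other and overlap at their 3′ ends.

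Each of the 4 clock genes with a TRBS of fold enrichment above 30 is shown by the 300 bases of that TRBS that hold the most motif matches, read along the strand of the gene on GRCm38. Capitals mark the E-box (CACGTG), the E-prime box (CACGTT), the D-box (TTATGTAA) and the half-sites of a DR4 with at most 2 mismatches, each in either orientation.
Nr1d2, chr14:18238379-18238678, minus strand: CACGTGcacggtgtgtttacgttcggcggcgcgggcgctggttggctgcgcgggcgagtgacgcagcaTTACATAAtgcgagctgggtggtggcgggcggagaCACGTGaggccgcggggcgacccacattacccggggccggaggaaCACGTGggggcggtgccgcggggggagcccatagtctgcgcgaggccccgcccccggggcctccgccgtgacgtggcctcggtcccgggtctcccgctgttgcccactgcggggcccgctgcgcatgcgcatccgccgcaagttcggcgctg
Per3, chr4:151044740-151045039, minus strand: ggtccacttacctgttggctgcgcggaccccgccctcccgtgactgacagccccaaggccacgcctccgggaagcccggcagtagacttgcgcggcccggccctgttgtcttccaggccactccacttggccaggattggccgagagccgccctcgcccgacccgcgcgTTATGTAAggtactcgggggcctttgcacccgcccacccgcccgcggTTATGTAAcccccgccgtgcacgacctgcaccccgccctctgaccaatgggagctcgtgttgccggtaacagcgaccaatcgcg
Nr1d1, chr11:98773844-98774143, minus strand: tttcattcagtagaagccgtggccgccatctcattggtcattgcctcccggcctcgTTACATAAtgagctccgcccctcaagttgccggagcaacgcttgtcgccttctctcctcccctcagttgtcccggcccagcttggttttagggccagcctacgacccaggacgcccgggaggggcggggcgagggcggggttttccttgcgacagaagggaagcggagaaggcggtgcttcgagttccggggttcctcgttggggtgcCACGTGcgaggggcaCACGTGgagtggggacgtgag
Dbp, chr7:45707703-45708002, plus strand: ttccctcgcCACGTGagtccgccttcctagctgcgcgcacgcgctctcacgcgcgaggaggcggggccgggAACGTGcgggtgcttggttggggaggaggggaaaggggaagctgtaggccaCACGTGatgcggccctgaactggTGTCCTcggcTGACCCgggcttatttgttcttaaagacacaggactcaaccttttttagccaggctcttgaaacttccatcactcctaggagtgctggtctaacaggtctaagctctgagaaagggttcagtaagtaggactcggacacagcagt
The Nr1d2 stretch held 3 E-boxes and 1 D-box and the Nr1d1 stretch held 2 E-boxes and 1 D-box, both in the first intron. The Per3 stretch lay just upstream of the gene and held 2 D-boxes. The Dbp stretch held 2 E-boxes, 1 E-prime box and 1 DR4. The summit lay at base 150 of the Per3 and Nr1d1 stretches and at base 151 of the Dbp stretch, and outside the Nr1d2 stretch.

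The DR4 elements at the clock genes are shown for their distance from the letters of a perfect repeat. Each is read along its own strand with 10 bases on either side, and capitals mark the half-sites. Distances in the names are those of the summit of the TRBS from the 5′ end of the gene.
Cry2, 12011 bp upstream, chr2:92446000-92446035, minus strand: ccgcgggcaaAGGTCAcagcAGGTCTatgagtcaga
Cry2, intron 5, chr2:92416296-92416331, plus strand: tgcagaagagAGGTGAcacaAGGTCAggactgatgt
Cry2, 24.7 kb upstream, chr2:92458794-92458829, plus strand: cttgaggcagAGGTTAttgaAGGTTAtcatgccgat
Dbp, intron 2, chr7:45707838-45707873, minus strand: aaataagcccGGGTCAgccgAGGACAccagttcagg
Nr1d1, intron 1, chr11:98773129-98773164, plus strand: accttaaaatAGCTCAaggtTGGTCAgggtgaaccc
Nr1d1, 13.7 kb upstream, chr11:98789003-98789038, plus strand: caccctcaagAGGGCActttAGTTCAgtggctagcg
Rora, intron 1, 141 kb, chr9:68794700-68794735, plus strand: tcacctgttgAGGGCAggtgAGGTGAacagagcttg
Rora, intron 1, 215 kb, chr9:68869132-68869167, minus strand: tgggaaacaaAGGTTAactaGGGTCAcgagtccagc
Nr1d1 and Thra, intron 1 of Thra, chr11:98746515-98746550, plus strand: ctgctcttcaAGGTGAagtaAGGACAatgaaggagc
The first 2 Cry2 elements had 1 mismatch to the repeat of AGGTCA. The other 7 elements had 2 mismatches each.

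All 10 clock genes had at least 1 TRBS, whereas 57.7% of the 21938 protein-coding genes did by the same rule. A TRBS within 1 kb of the 5′ end was found in 7 of the 10 genes, against 23.2% of the protein-coding genes. The median was 4 TRBS per clock gene and 1 per protein-coding gene. The clock genes had a median of 3.21 TRBS per 100 kb searched, against 1.21, and the median length searched was 68044 bp against 60001 bp. No TRBS was attributed to more than 1 of the 10 genes. The genes had been listed with earlier results of these data known, so these shares are descriptions and were not tested.

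Nr1d1 had 13 TRBS, and 5 when those of Thra were left out. At least 13 TRBS were found in 0.415% of the protein-coding genes and at least 5 in 6.57%. Cry2 and Rora had 9 each, a number reached by 264 of the protein-coding genes. Per1 had 7, reached by 2.64%, and Dbp had 5. Cry1 had 3, reached by 18.5%, and Per2, Per3 and Clock had 2 each, reached by 32.4%. Nr1d2 had a single TRBS, the lowest number among the clock genes, and it was the one with the highest enrichment.

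**Figure D1:**
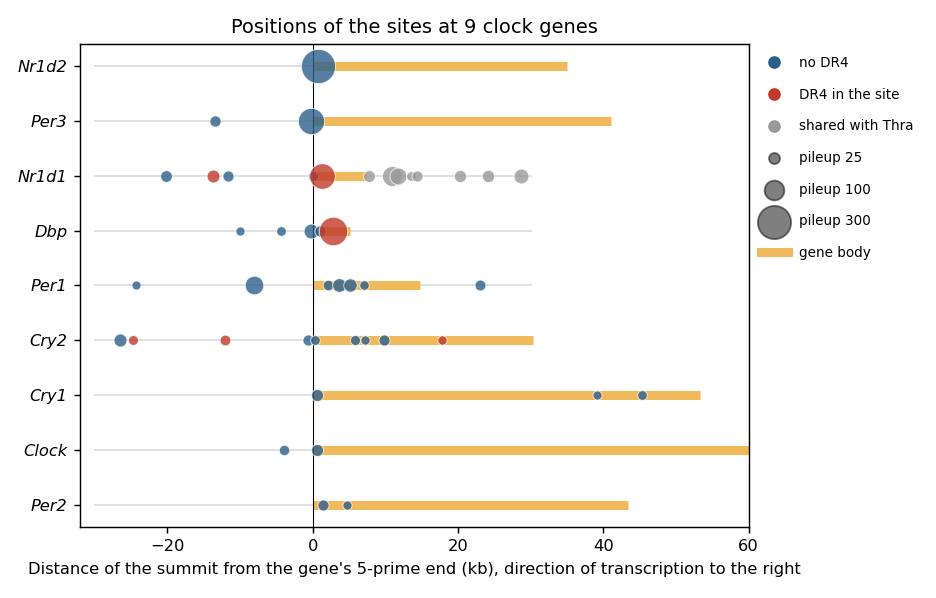
Position of each TRBS (x axis, distance of the summit from the 5′ end of the gene in kb) at 9 clock genes, with the area of a point growing with the pileup and the gene body as a bar, cut at 60 kb for Clock. The points with the highest pileup at Nr1d2, Per3, Nr1d1 and Dbp lie within 3 kb of the 5′ end, whereas at Per1 and Cry2 the point with the highest pileup lies upstream.

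Enrichment is given by 2 values of the peak caller MACS. The pileup is the number of ChIP fragments that cover the summit. The fold enrichment is the pileup divided by the local background, with 1 added to each. The median fold enrichment at the clock genes was 8.77, with a 95% interval of 7.07 to 9.67 from the order of the values, and that of all TRBS was 7.40. The 45 TRBS of the clock genes alone had a median of 8.15. Their median pileup was 23 fragments, against 21 in all TRBS. A fold enrichment below 10 was found in 33 of the 45, or 73.3%, and in 70.2% of all TRBS. The typical TRBS at a clock gene was therefore close to the typical TRBS of the list, and a few stood far above it.

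The TRBS of Nr1d2, which encodes REV-ERBβ, had the highest fold enrichment of the clock genes. It lay at chr14:18237640-18239181, with its summit in intron 1, 795 bp downstream of the 5′ end. Its pileup was 317 fragments over a local background of 1.85, and its fold enrichment of 112 ranked 4 among the 23988 TRBS. The summit itself had no DR4 within 100 bp, and no DR4 was found in the whole TRBS. Its 3 E-boxes lay 195, 240 and 343 bp from the summit, towards the 5′ end of the gene, with the D-box at 274 bp.

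Per3, a member of the Period family of clock repressors, had its strongest TRBS at chr4:151044525-151045543. The summit was 225 bp upstream of the 5′ end and inside Camta1, which overlaps it. Here 183 fragments gave a fold enrichment of 68.4, which ranked 68. This TRBS had no DR4, no E-box and no RORE. It had 3 D-boxes, at 24, 71 and 441 bp from the summit. The other TRBS of Per3, 13.5 kb upstream, lay 181 bp from the start of Vamp3, had a fold enrichment of 6.89 and contained a cAMP response element (CRE, TGACGTCA).

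Nr1d1 encodes REV-ERBα. Its strongest TRBS, at chr11:98772834-98774585, had its summit in intron 1, 1339 bp downstream of the 5′ end. Here 173 fragments gave a fold enrichment of 64.7, which ranked 87. A D-box lay 89 bp from the summit and 3 of the 4 E-boxes lay at 118, 133 and 162 bp. The DR4 of this TRBS was 848 bp from the summit and its RORE was 735 bp from it. A separate TRBS with its summit 16 bp from the 5′ end, in the untranslated part of exon 1, reached 20 fragments and a fold enrichment of 7.81. The intronic TRBS thus had more fragments than the one at the start of the gene. The 3 upstream TRBS of Nr1d1 had fold enrichments of 6.81, 8.83 and 10.3. All 3 lay nearer to the start of Msl1 than to that of Nr1d1, at 28, 8526 and 6530 bp from Msl1 in this order.

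Dbp had its strongest TRBS at chr7:45707165-45708400. The summit was 2765 bp downstream of the 5′ end, in intron 2 of transcript Dbp-201 and in an exon of a non-coding transcript, 36 bp from another annotated start of Dbp. The pileup of 216 fragments was above those of Per3 and Nr1d1, but the local background of 4.62 was the highest at any clock gene, and the fold enrichment was 38.6. By pileup this TRBS ranked 72 and by fold enrichment 465. It was the only one of the 4 strongest with a DR4 near its summit, 2 bp away. An E-box lay 26 bp from the summit, an E-prime box 77 bp and another E-box 139 bp. Dbp also had a TRBS 218 bp upstream of its 5′ end with a fold enrichment of 11.4, and 3 others with 5.02 to 9.28.

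The number of fragments at the strongest TRBS of each gene set the order of the genes, given with exact Poisson 95% intervals that cover counting error only. Nr1d2, with 317 (283 to 354), stood above Dbp, with 216 (188 to 247). The intervals of Dbp, of Per3, with 183 (157 to 212), and of Nr1d1, with 173 (148 to 201), overlapped from each to the next. Per1, with 87 (69.7 to 107), lay below Nr1d1, and its interval overlapped that of Rora, with 68 (52.8 to 86.2). Cry2 had 38 (26.9 to 52.2), Cry1 and Clock had 32 each (21.9 to 45.2), and Per2 had 25 (16.2 to 36.9). These last 4 were not separated by their intervals. No fold enrichment between 25.7 and 38.6 was found among the 45 TRBS. Above 30 lay 4 of the 45, and 900 of all TRBS, or 3.75%.

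**Figure D2:**
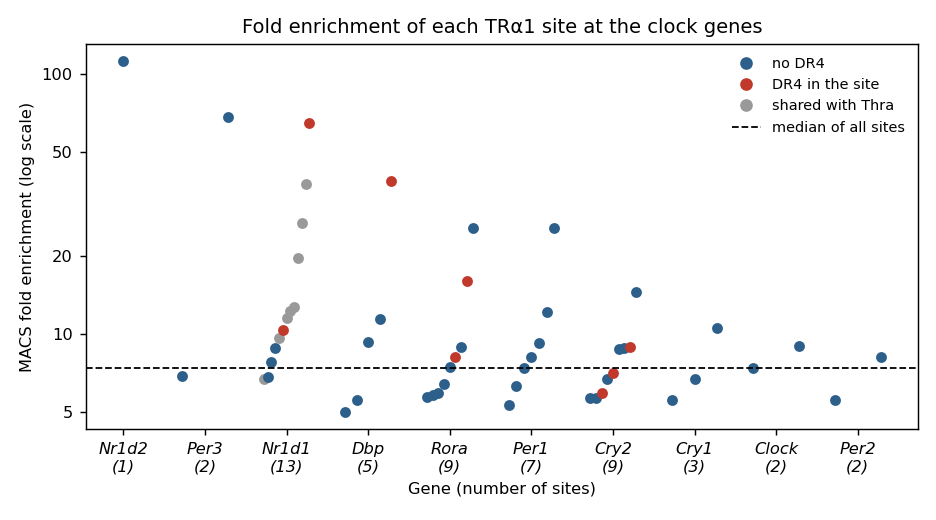
Fold enrichment (y axis, log scale) of each of the 53 TRBS, grouped by gene, with colours for TRBS without a DR4, with a DR4 and shared with Thra, and a dashed line at the median of all TRBS, 7.40. The highest points of Nr1d2, Per3, Nr1d1 and Dbp lie at 112, 68.4, 64.7 and 38.6, and the TRBS of Cry1, Clock and Per2 lie at or below 10.5.

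The Per genes differed in how their TRBS were spread. Per1 and Per2 encode the Period proteins most needed for the rhythm. The strongest TRBS of Per1 was upstream, 8015 bp from the 5′ end (chr11:69086876-69087533), with 87 fragments at its summit and 25.6-fold enrichment, but it lay nearer to the start of Vamp2, at 1288 bp. Inside Per1 there were 4 TRBS with fold enrichments of 6.32 to 12.2. The one at 12.2 was 29 bp from an annotated start of a Per1 transcript and held an E-box and an E-prime box. The one at 2077 bp downstream, with a fold enrichment of 7.43, held a CRE 89 bp from its summit. Per2 had 2 TRBS in intron 1, at 1457 and 4747 bp, with fold enrichments of 8.15 and 5.58. The first, at chr1:91457472-91458042, held an E-prime box. Per1 thus had several TRBS of moderate enrichment, whereas the enrichment at Per3 was in 1 TRBS at its start and Per2 had only low values.

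Of the Cryptochrome genes, which encode the main repressors of CLOCK and BMAL1, Cry2 had 9 TRBS and Cry1 had 3. The strongest at Cry2 (chr2:92460316-92460732, 26.5 kb upstream) had a fold enrichment of 14.5, and lay 30 bp from the start of Slc35c1. Close to the start of Cry2 there were 2 TRBS, 641 bp upstream and 265 bp downstream, with fold enrichments of 8.83 and 6.69. Cry2 was also the clock gene with most DR4 elements near summits: its 3 DR4 lay 37, 60 and 75 bp from the summit, in TRBS with fold enrichments of 8.93, 7.07 and 5.95. The summit of the last of these was in coding exon 6 of Cry2, and its DR4 was in the adjoining intron 5. The nearest protein-coding start to that summit was that of Mapk8ip1, at 14975 bp, against 17805 bp for Cry2. The TRBS at 7.07 had its summit inside Slc35c1, 1787 bp from the start of that gene. At Cry1 the strongest TRBS (chr10:85184285-85185345, 562 bp downstream, in the untranslated part of exon 1) had a fold enrichment of 10.5 and held an E-box and 2 E-prime boxes. The other 2 were deep in introns 7 and 10, with 5.58 and 6.69.

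Clock, the activator of the loop, had a TRBS in intron 1 (chr5:76304015-76305149), 663 bp downstream, with 32 fragments and 8.98-fold enrichment. The second, 3873 bp upstream, had 21 fragments and 7.42-fold enrichment. Neither contained any of the 5 clock motifs or a DR4.

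Rora was different in its geometry. The gene spans 734 kb, and only 112 protein-coding genes are longer. Its 9 TRBS all lay inside the gene and more than 30 kb from its 5′ end, between 60.9 and 557 kb, and 1 of them was within 30 kb of one of the 5 annotated transcript starts. Intron 1 held 8 and intron 2 held 1. The strongest (chr9:68922787-68923574), 270 kb into intron 1, reached 68 fragments and 25.7-fold enrichment. It had no DR4 and a D-box 416 bp from the summit. The next, 141 kb downstream of the 5′ end, was enriched 16.0-fold and held a DR4 76 bp from its summit. The other 7 had fold enrichments of 5.73 to 8.93, with the other DR4 at 8.18. Per length searched, Rora had 1.18 TRBS per 100 kb, the lowest of the 10 genes and close to the median of the protein-coding genes.

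**Figure D3:**
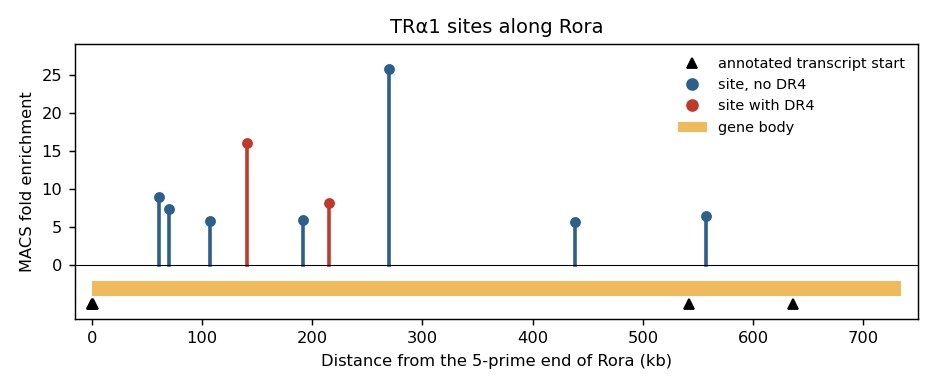
Fold enrichment (y axis) of the 9 TRBS of Rora against their distance from its 5′ end in kb (x axis), with the gene body as a bar and annotated transcript starts as triangles. The TRBS begin 60.9 kb from the 5′ end, and the highest point, 25.7, lies in the middle of intron 1 and away from every annotated start.

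The 8 TRBS shared by Nr1d1 and Thra all lay inside Thra and downstream of Nr1d1, which overlaps Thra by 1075 bp. They had fold enrichments of 6.69 to 37.7, with a median of 12.5. The strongest, at chr11:98764137-98764783, had a pileup of 101 and its summit in coding exon 9 of Thra-201. The next had a fold enrichment of 26.8, in coding exon 8. The summits in coding exons 5 and 6 had fold enrichments of 9.67 and 6.69. The local background was between 1.69 and 1.70 at all 8. The lowest background in the whole list, 1.69, was that of 5 of these 8, of 24 of the 53 and of 42.3% of all TRBS. At such TRBS the fold enrichment follows from the pileup alone. The 4 intronic ones had fold enrichments of 11.5 in intron 9, 12.3 in intron 2, and 12.6 and 19.6 in intron 1. The one at 19.6 held the single DR4 of this group, 99 bp from its summit. The strongest Nr1d1 TRBS lay 4988 bp beyond the 3′ end of Thra and was outside the area searched for Thra. A tagged copy of TRα1 was present in these animals, and its part in the fragments over the coding exons of Thra was not tested.

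**Figure D4:**
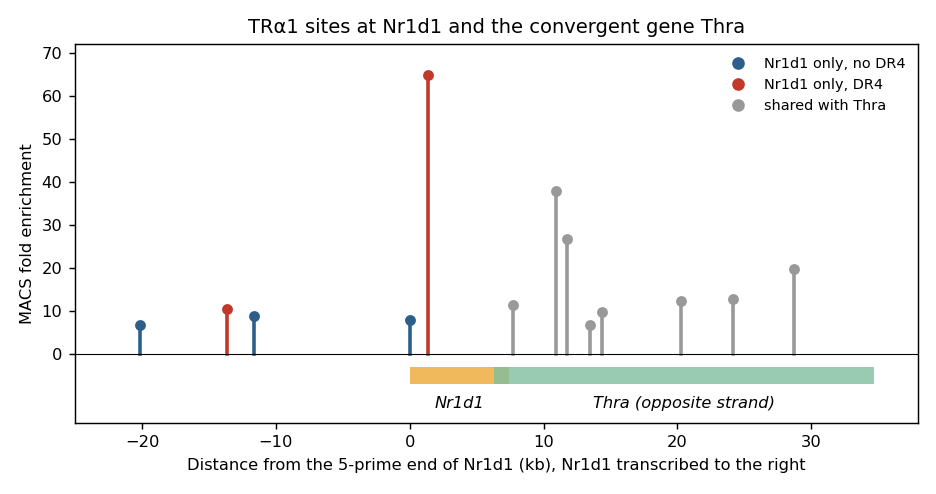
Fold enrichment (y axis) of the 13 TRBS of Nr1d1 against the distance from its 5′ end in kb (x axis, Nr1d1 transcribed to the right), with the bodies of Nr1d1 and of the convergent gene Thra as bars. The highest point, 64.7, lies inside Nr1d1, and the 8 grey points that are shared with Thra reach 37.7.

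The share of TRBS with a DR4 at the clock genes was close to that of the whole list. A DR4 with at most 2 mismatches was present in 9 of the 53 TRBS, or 17.0% (95% Wilson interval 9.20 to 29.2), against 17.3% of all TRBS. Without those of Thra it was 8 of 45, or 17.8%. Within 100 bp of the summit the shares were 13.2% and 13.1%. A match was counted there only if all its bases lay inside that window, whereas the distances given are to the middle of a match. The DR4 in intron 1 of Thra, 99 bp from its summit, was therefore not counted. The interval would also hold a share well above or below that of all TRBS. The DR4 elements were in 4 genes: Nr1d1, Cry2, Dbp and Rora. Of the 8 TRBS of the clock genes that lay within 1 kb of the 5′ end, 0 had a DR4. Within 1 kb of any protein-coding start the share was 0 of 14 at the clock genes alone, against 9.83% of all TRBS. Counts this small cannot separate the clock genes from that share. The median fold enrichment was 9.63 in the 8 TRBS with a DR4 and 7.44 in those without, and 8.18 and 7.08 in all TRBS. Among the other arrangements of half-sites, DR5 was present in 8 of the 53 TRBS, or 15.1% (7.85 to 27.1), against 6.31% of all TRBS, but within 100 bp of the summit in 3.77% against 3.23%. Without the TRBS of Thra it was present in 6 of 45, or 13.3% (6.26 to 26.2), an interval that included the share of all TRBS. IR0 was found in 0 of 53 and in 2.44% of all TRBS. The shares for DR0 to DR3, DR6 to DR8 and ER6 had intervals that included the share of all TRBS.

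The motifs of the clock itself, searched without mismatch on both strands, were more frequent at the clock genes than in the list when the whole TRBS was read. The E-box was present in 12 of 53, or 22.6% (13.5 to 35.5), against 10.3% of all TRBS. The E-prime box was present in 9, or 17.0% (9.20 to 29.2), against 8.35%. The D-box was present in 6, or 11.3% (5.29 to 22.6), against 3.47%. The CRE was present in 2, or 3.77% (1.04 to 12.8), against 1.33%, and the RORE (AANTAGGTCA) in 2, or 3.77% (1.04 to 12.8), against 0.654%. The interval of the CRE included the share of all TRBS, and those of the other 4 motifs did not. These intervals treat TRBS of the same gene as independent. All TRBS with a RORE, and several of those with an E-box, were attributed to Nr1d1. Without the TRBS of Thra the shares were 20.0%, 17.8%, 8.89%, 4.44% and 2.22%, and the intervals of the CRE and the RORE included the share of all TRBS. Near the summits matches were few, and the interval of each motif included the share of all TRBS. Within 100 bp of the summit the E-box was found in 1 of 53, or 1.89% (0.334 to 9.94), against 4.68% of all TRBS. The E-prime box was found in 5.66% (1.94 to 15.4) against 3.58%, and the D-box in 3.77% (1.04 to 12.8) against 1.77%. The CRE was found in 1.89% (0.334 to 9.94) against 0.542%. A RORE ends in the half-site of TRα1. Within 100 bp of the summit it was found in 0 of 53 (0 to 6.76), against 0.338% of all TRBS. At so low a share, 0 of 53 does not set the clock genes apart from the list.

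**Figure D5:**
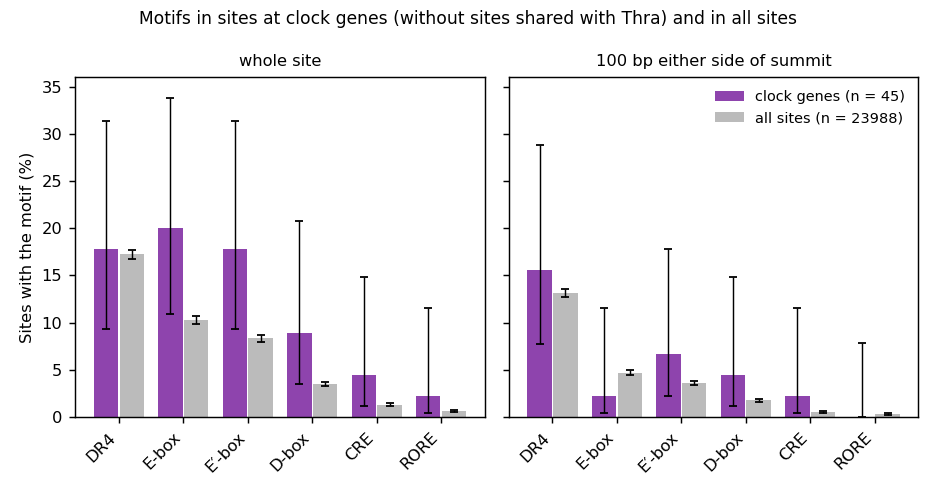
Share of TRBS (y axis, %) that contain each motif, for the 45 TRBS of the clock genes without those of Thra and for all 23988, in the whole TRBS (left) and within 100 bp of the summit (right), with 95% Wilson intervals as error bars. In the whole TRBS the DR4 bars are at 17.8% and 17.3% and the E-box bars at 20.0% and 10.3%. Near the summit the E-box bar of the clock genes is the lower one, but its interval includes the share of all TRBS.

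The TRBS of clock genes were longer than most, and longer TRBS held more matches. Their median length was 540 bp against 422 bp, and 13 of the 53, or 24.5%, were at least 1 kb long, against 4.20%. Their median GC content was 54.2% against 49.6%. Among the 45 TRBS of the clock genes alone, the E-box was present in 1 of the 22 shorter than 500 bp, or 4.55%, and in 6.77% of all TRBS of that length. It was present in 3 of the 13 from 500 bp to under 1 kb, or 23.1%, against 14.9%, and in 5 of the 10 of at least 1 kb, against 27.6%. The D-box was present in 3 of these 10, against 7.94%. In the short class it was present in 0 of 22, against 2.88%, and in the middle class in 1 of 13, against 4.05%. Each class held few TRBS of clock genes, and the difference between classes was not tested. For the DR4 the shares were 27.3% against 15.1% in the short class, 0 of 13 against 20.0% in the middle class and 20.0% against 28.1% in the long class. Of the 45, 14 had their summit within 1 kb of a protein-coding start. The E-box was present in 3 of these 14, or 21.4%, against 15.7% of all TRBS so placed. The E-prime box was present in 3, or 21.4%, against 11.2%, and the D-box in 2, or 14.3%, against 1.47%. The CRE was present in 1, against 3.62%, and the RORE in 0, against 0.327%. These counts were small and were not tested.

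Each of the 4 strongest TRBS contained an E-box or a D-box, against 24.3% of the 900 TRBS with a fold enrichment above 30. All 4 were at least 1 kb long, and 33.2% of all TRBS of that length contained either motif. An E-box and a D-box together were present at Nr1d1 and Nr1d2, and in 14 of the 900, or 1.56%. At least 3 E-boxes with a D-box were found in 5 of the 23988 TRBS, and 2 of these 5 were the strongest TRBS of Nr1d1 and Nr1d2. At least 3 D-boxes were found in 2 TRBS, and 1 of them was that of Per3. These limits of 3 and the limit of 30 were chosen after the values had been seen, and combining the E-box with the D-box was not planned beforehand. E-boxes are known to drive Nr1d1, Nr1d2 and Dbp, and any link of these matches with TRα1 binding was not tested. A match describes the letters of the sequence and does not show that a clock protein was bound.

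By annotation, 24 of the 45 TRBS of the clock genes alone were in introns, 15 upstream, 1 downstream, 1 in a coding exon, 2 in untranslated exons and 2 in exons of non-coding transcripts. For 29 of them the nearest protein-coding start was that of the clock gene. For the other 16 it was that of another gene, and 6 of these lay within 1 kb of that other start: Msl1, Tmem107, Vamp3, Slc35c1, Sec1 and Car11. Beyond 30 kb but inside the gene were 11, of which 9 belonged to Rora and 2 to Cry1. The TRBS farthest from its gene was at Cry2, at 26.5 kb. Just outside the area searched were TRBS at 30273 bp from Per1, with a fold enrichment of 6.85, and at 30508 bp from Nr1d1, with 6.11. A TRBS 35.4 kb from Per2 had a fold enrichment of 22.9, higher than both of those counted for this gene.

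The rest of the clock machinery was described with a list of 23 other genes. TRBS were found at 19 of them, or 82.6%, against 57.7% of the protein-coding genes. Within 1 kb of the 5′ end they were found at 12 of the 23, against 23.2% of the protein-coding genes. Npas2, which encodes an alternative partner of BMAL1 in the brain, had 14 TRBS, and Arntl, which encodes BMAL1, had 9. Gsk3b, a kinase, and Usp2, a deubiquitinase, had 7 each. Hlf and Tef, which encode activators of the same family as DBP, had 6 each, and at Hlf the fold enrichment reached 74.5. Arntl2, Csnk1a1 and Timeless were among the genes to which no TRBS was attributed.

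The peak list holds no RNA, so the labelled cell type could only be compared with occupancy at marker genes. TRBS were found at 9 of 10 markers of GABAergic and striatal neurons, with Adora2a as the exception, against 57.7% of the protein-coding genes. They were found at 5 of 14 markers of astrocytes, oligodendrocytes, microglia, endothelium and glutamatergic neurons, or 35.7%. The 5 were Mbp with 11, Cx3cr1 with 3, Mog with 2, and Aif1 and Slc17a7 with 1 each. Binding does not measure expression, and the part of other cells in the clock gene TRBS was not tested.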

How the data were processed

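TRα1 ChIP-seq had been performed on striatum crosslinked with disuccinimidyl glutarate and formaldehyde, giving 2 ChIP libraries and 1 input library, grouped here by sample title. Reads had been aligned by the authors to GRCm38 (mm10), and peaks called with MACS2 (2.1.1.20160309.0 in the submitters' processing notes, which also name Bowtie2 2.3.2.2). Peaks with a score below 60 had been removed. Pooling of the ChIP libraries and treatment of duplicates are not given in the sources used here. Library depth was not analysed here.

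In the deposited list, pileup is the coverage signal at the summit, and fold enrichment is its ratio to the local background. The deposited score was used only as a filter, and no result given here used the −log10 q value or the p-value column. Dividing the pileup plus 1 by the fold enrichment and subtracting 1 gave the local background.

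Genes were taken from GENCODE vM21 without the mitochondrial chromosome, and exon and intron numbers from the protein-coding transcript with the longest coding sequence, the first by name where several tied. DR0 to DR8, ER6 and IR0 were searched on both strands allowing up to 2 mismatches over the 12 bases of both half-sites, in place of the position matrix of the study, and the other motifs without mismatch. Wilson intervals (95%) and Poisson intervals cover counting error only. The Wilson intervals treat TRBS of the same gene as independent. No test was run, since the list has no replicate values. The members and lists had been chosen with earlier results of these data known. Named were all 10 genes with their TRBS counted, in full the strongest TRBS of each, those with a DR4 and those shared with Thra, nearer neighbouring genes, and of the other clock genes the 5 with most TRBS and those with none. Hlf and Tef tied for the last of these places. One gene of that list is not reported here by name. The 300-base stretches, the limit of 30 for fold enrichment, the length classes and the counts of 3 motifs were chosen after the values had been seen. Alternatives were other distances, peak positions, scores, transcript starts and mismatch limits. Computations were made in Python 3.11.15 with pandas 2.3.3, numpy 2.4.6 and scipy 1.17.1, and figures with matplotlib 3.10.9. Motif search and assignment were tested on simulated data.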

Additional observations from a re-analysis of the deposited data

How the results depend on the processing

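Of 29 alternatives, 25 left their result within its interval or within 1.5 times the count. A score of at least 200 left 20 TRBS at the clock genes and raised their median fold enrichment to 15.2, against 14.5 in all TRBS of that score. With at most 1 mismatch the DR4 share was 3.77%, against 3.86% of all TRBS, and with at most 3 mismatches it was 64.2%, against 52.9%. These 4 changes follow from fewer TRBS or from a stricter or looser match. TRBS were found at 9 of the 10 clock genes without the gene body, where Rora had none, and at 9 with a score of at least 200, where Per2 had none. The shares of protein-coding genes under these settings were 53.3% and 30.6%. No paired analysis was possible because the list holds no values for a single library. For the same reason no library could be left out. The number of fragments limits the order of the weaker TRBS, with 14 to 32 fragments at many of them.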
